A study of Mus musculus with 6 samples.

Results

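Gpnmb, a transmembrane glycoprotein of lysosomes and melanosomes, was followed here together with the MiT/TFE transcription factors and the genes that control them. The set held 10 genes of the 19938 measured: the melanosomal genes Gpnmb and Pmel, the factors Mitf, Tfeb, Tfe3 and Tfec, the folliculin complex Flcn, Fnip1 and Fnip2, and the Rag GTPase Rragd. Each was read from every probe set that the platform annotation assigns to that gene alone, which gave 1 probe set per gene except for Mitf, with 2. The set was assembled because Gpnmb was higher after differentiation, so the difference of Gpnmb is given as a description with no test. The other 9 genes were taken for their relation to it, with results of these data already known.

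Expression was measured on 6 one-colour Affymetrix arrays, 1 per sample, hybridised with RNA from MC3T3-E1, a C57BL/6 line of osteoblast precursors from newborn mouse calvaria. The differentiated group held 3 arrays of cells brought to confluence and then induced for 14 days in DMEM with dexamethasone (0.1 µM), β-glycerophosphate (10 mM), ascorbic acid-2-phosphate (0.2 mM), sodium pyruvate (1 mM) and 10% serum. The undifferentiated group held 3 arrays of the same line kept in α-MEM free of ascorbic acid, with 10% serum and no induction. Both groups come from 1 cell line. Medium, confluence, the 14 days of induction and the induction compounds differ between them together, so their parts cannot be told apart. The design names independent replicates but gives no detail of how they were separated, so errors and p-values measure only the spread between these samples. Values are log2 expression centred so that each probe set has a median of 0 over the 6 arrays. They show differences between arrays but not whether a gene is expressed at a high or low level, and levels of different genes cannot be compared. In all, 35.5% of genes passed an adjusted p under 0.05 in limma, 16.4% higher and 19.1% lower in differentiated cells, and the median log2 difference of all genes was 0.02. Of 7 tested osteoblast markers, Dmp1, Ibsp and Alpl rose, Col1a1 and Sp7 fell (Sp7 lost its call after cyclic loess scaling, where 1 marker was lower), and Col1a2 and Phex did not pass.

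The MiT/TFE factors are basic helix-loop-helix leucine zipper proteins that bind E-box motifs and switch on genes of the lysosome, of autophagy and, in pigment cells, of the melanosome. When nutrients are ample, the kinase complex mTORC1 at the lysosome phosphorylates Tfeb and Tfe3, which are then held in the cytoplasm. Heterodimers of Rag GTPases bring the factors to mTORC1, and folliculin with a folliculin-interacting protein (Fnip1 or Fnip2) activates the RagC or RagD member of that dimer. In other cells Flcn, Fnip1, Fnip2, Rragd and Gpnmb are themselves targets of these factors. In bone, Mitf and Tfe3 are known for their role in osteoclasts, and Gpnmb, also called osteoactivin, is made by osteoblasts, osteoclasts and macrophages. Arrays measure RNA, not the phosphorylation or location of the factors.

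RefSeq promoters (GRCm38.p6, 250 bases before to 50 after a start site) were matched for 9 of the 10 genes, 14 promoters in all, and none for Pmel. They were searched on both strands for CACGTG, the palindromic core E-box of these factors, with TCACGTG as its extended form, and for CATGTG, the core of the M-box of pigment genes, with TCATGTG as its extended form. Each extended form contains its core. The promoters of the gene that opened the set and of the folliculin complex are shown, because these 4 genes had the largest differences. This order takes Mitf as the mean of its 2 probe sets. Capitals mark CACGTG or CATGTG.
Gpnmb, chr6:49036268-49036567, plus strand: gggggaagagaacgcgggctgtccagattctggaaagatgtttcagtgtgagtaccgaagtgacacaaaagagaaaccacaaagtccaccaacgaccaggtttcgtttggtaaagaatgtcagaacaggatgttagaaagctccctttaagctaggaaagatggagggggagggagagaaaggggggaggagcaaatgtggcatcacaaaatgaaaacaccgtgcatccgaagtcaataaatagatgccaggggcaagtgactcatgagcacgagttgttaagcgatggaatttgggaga
Fnip2, chr3:79567630-79567929, minus strand: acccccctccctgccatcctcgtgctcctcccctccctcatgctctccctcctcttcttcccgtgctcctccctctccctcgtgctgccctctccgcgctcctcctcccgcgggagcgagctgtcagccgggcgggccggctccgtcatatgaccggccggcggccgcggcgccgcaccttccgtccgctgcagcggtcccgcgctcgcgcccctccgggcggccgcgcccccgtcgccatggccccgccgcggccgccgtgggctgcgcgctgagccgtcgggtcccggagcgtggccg
Fnip1, chr11:54437929-54438228, plus strand: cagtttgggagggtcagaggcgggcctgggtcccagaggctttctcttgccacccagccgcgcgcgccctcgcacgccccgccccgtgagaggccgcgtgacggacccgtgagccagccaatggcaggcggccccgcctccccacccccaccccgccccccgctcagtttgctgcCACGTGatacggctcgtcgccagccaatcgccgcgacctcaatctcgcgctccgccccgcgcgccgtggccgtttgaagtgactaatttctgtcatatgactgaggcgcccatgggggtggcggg
Flcn, chr11:59809990-59810289, minus strand: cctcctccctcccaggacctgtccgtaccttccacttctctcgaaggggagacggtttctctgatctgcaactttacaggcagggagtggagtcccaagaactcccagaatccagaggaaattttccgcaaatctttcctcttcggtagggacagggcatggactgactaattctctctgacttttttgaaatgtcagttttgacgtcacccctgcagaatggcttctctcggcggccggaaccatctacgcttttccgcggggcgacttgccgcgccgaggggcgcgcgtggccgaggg
Fnip1 was the only one of the 9 genes with a CACGTG match, which began 75 bases before the start site and was also a TCACGTG match on the other strand. None of the 14 promoters held CATGTG. Sequence outside these windows was not searched, so matches elsewhere are unknown. Among all 32851 promoters of this length, CACGTG was found in 7.15%, TCACGTG in 3.77%, CATGTG in 14.2% and TCATGTG in 3.77%. Counted by gene, over all 27025 genes with a promoter, the shares were 8.09%, 4.29%, 15.9% and 4.31% in the same order.

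Gpnmb (probe set 10538187) had centred log2 values of 2.27, 2.23 and 2.33 in differentiated cells, against -2.28, -2.58 and -2.23 in undifferentiated cells. All 3 differentiated arrays lay far above all 3 undifferentiated ones, with the lowest undifferentiated value in replicate 2. The log2 difference was 4.64 ± 0.09 (SE, 3 arrays per group), or 24.9-fold, and ranked 6 of 19938 genes. It was 3.79 after quantile scaling of the centred values and 4.53 to 4.71 under the other alternatives. In a bulk culture, more RNA per cell and a larger share of cells making it cannot be told apart. Pmel, the paralogue of Gpnmb that forms the amyloid fibrils of pigment granules, had values of 0.17, 0.19 and 0.07 in differentiated cells, against -0.18, -0.07 and -0.16 in undifferentiated cells. The groups did not overlap, but the step was small: Pmel rose by 0.28 ± 0.06 (1.21-fold, adjusted p = 0.00470). The 15 probe sets that list Pmel together with other genes were left out.

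**Figure D1:**
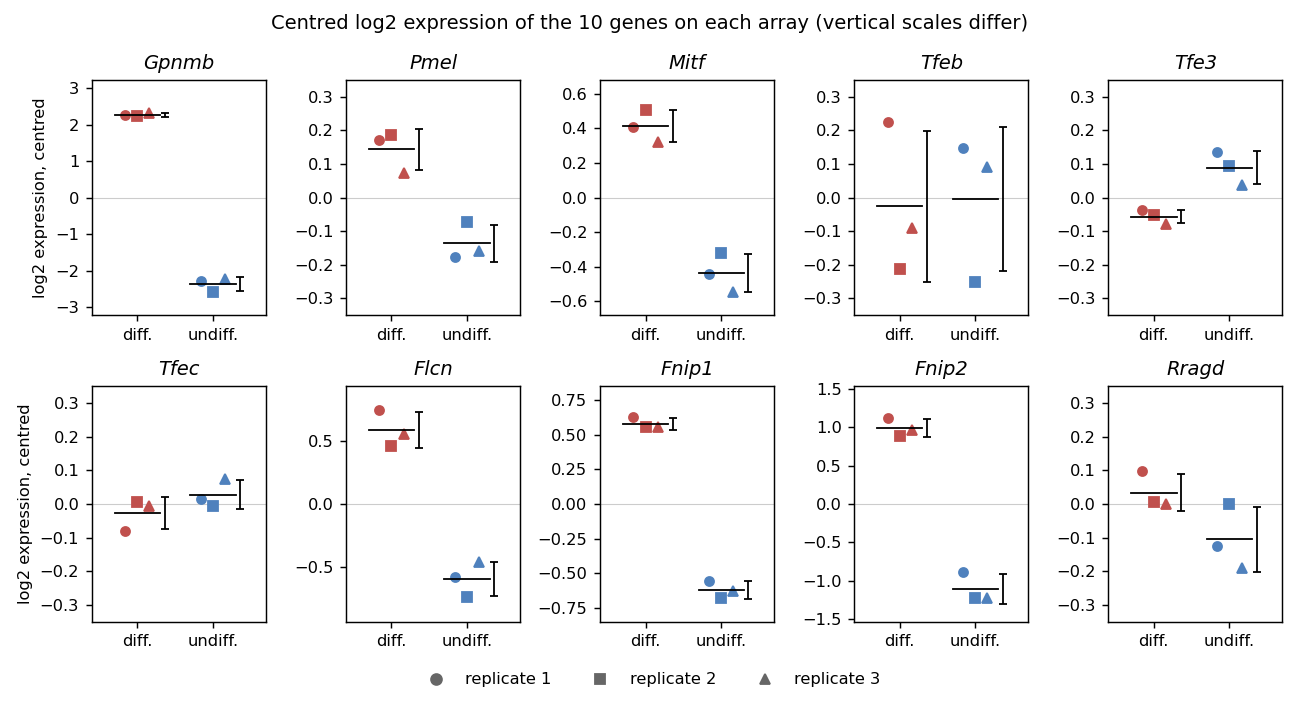
Centred log2 expression of each of the 10 genes on the 3 differentiated (diff., red) and 3 undifferentiated (undiff., blue) arrays; symbols are replicates, lines the group means and bars the SD, and vertical scales differ between panels. Gpnmb, Mitf, Flcn, Fnip1 and Fnip2 stand clearly apart between the groups, while Tfeb, Tfec and Rragd overlap.

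Of the 4 transcription factors, Mitf rose, while Tfeb, Tfe3 and Tfec did not pass the threshold; the differences between the factors were not tested. Mitf, averaged over its probe sets, had values of 0.41, 0.51 and 0.32 in differentiated cells, against -0.44, -0.32 and -0.54 in undifferentiated cells. Its log2 difference was 0.85 ± 0.07 (1.80-fold, adjusted p = 2.44e-05). That mean joins 2 probe sets that disagreed. Probe set 10540248 gave 0.77, 0.83 and 0.66 in differentiated cells, against -0.84, -0.66 and -1.03 in undifferentiated cells, a difference of 1.60 ± 0.09 (3.02-fold, adjusted p = 2.31e-06 over all probe sets). Probe set 10540265 gave 0.05, 0.18 and -0.02 in differentiated cells, against -0.04, 0.02 and -0.06 in undifferentiated cells, a difference of 0.10 ± 0.06 (adjusted p = 0.291), and its groups overlapped. The 2 differences, of probe set 10540248 and of probe set 10540265, stood 1.50 ± 0.09 apart (SE of the within-array gap, n = 3 arrays per group). That gap had an SD of 0.04 in differentiated and 0.15 in undifferentiated cells. Mitf is transcribed from several promoters with their own first exons, and the part of the gene that each probe set reads was not looked up here.

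**Figure D2:**
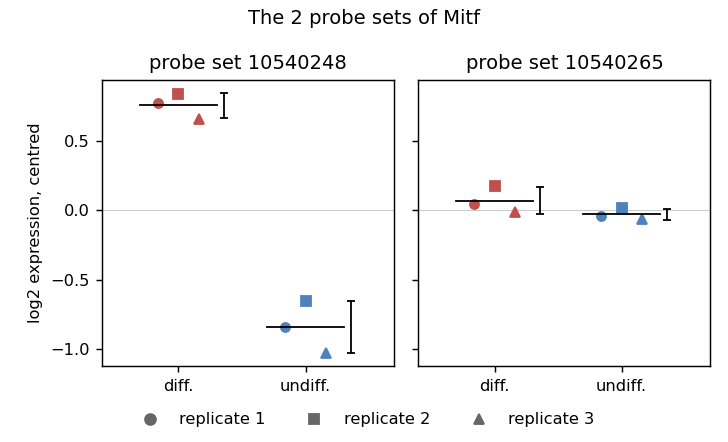
Centred log2 expression from the 2 probe sets of Mitf on the differentiated (red) and undifferentiated (blue) arrays, with group means (lines) and SD (bars). The groups are separated in probe set 10540248 and overlap in probe set 10540265.

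Tfeb, the factor best known for driving lysosome formation, had values of 0.22, -0.21 and -0.09 in differentiated cells, against 0.15, -0.25 and 0.09 in undifferentiated cells. Its arrays spread more within each group than those of any other gene of the set, with replicate 1 the highest and replicate 2 the lowest in both groups. The log2 difference was -0.02 ± 0.13 (adjusted p = 0.925), and its sign changed between alternatives, which ran from -0.15 to 0.07. Tfe3, a close relative with overlapping targets, had -0.04, -0.05 and -0.08 in differentiated cells, against 0.14, 0.09 and 0.04 in undifferentiated cells. These groups did not overlap, and the difference of -0.15 ± 0.05 missed the threshold (adjusted p = 0.0602). It passed with array weights (0.0459) and without undifferentiated replicate 3 (-0.17, adjusted p = 0.0468), in a range of 0.0459 to 0.172 over the alternatives. Tfec, which in mice is largely a macrophage factor, had -0.08, 0.01 and -0.01 in differentiated cells, against 0.01, -0.01 and 0.07 in undifferentiated cells, a difference of -0.05 ± 0.05 (adjusted p = 0.507). The arrays of Tfec overlapped between the groups.

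All 3 genes of the folliculin complex rose, each at least 2-fold, as 2.53% of all genes did. Fnip2 had the largest difference of the 9 genes beside Gpnmb. It gave 1.13, 0.89 and 0.96 in differentiated cells, against -0.89, -1.22 and -1.23 in undifferentiated cells, a log2 difference of 2.11 ± 0.10 (4.31-fold, adjusted p = 5.79e-07). Its paralogue Fnip1 gave 0.63, 0.55 and 0.56 in differentiated cells, against -0.55, -0.68 and -0.63 in undifferentiated cells (1.20 ± 0.06, 2.30-fold, adjusted p = 5.16e-07). Fnip1 had a tight spread within both groups, and its difference was 0.91 ± 0.09 (SE of the within-array step) below that of Fnip2. Flcn, which encodes the folliculin tumour suppressor, gave 0.75, 0.46 and 0.55 in differentiated cells, against -0.58, -0.73 and -0.46 in undifferentiated cells (1.18 ± 0.09, 2.27-fold, adjusted p = 1.07e-05). No array of either group overlapped the other in these 3 genes. Rragd, the Rag GTPase most often described as a MiT/TFE target, had 0.10, 0.00 and -0.00 in differentiated cells, against -0.12, 0.00 and -0.19 in undifferentiated cells. Its groups overlapped at undifferentiated replicate 2, and the difference of 0.14 ± 0.06 did not pass (adjusted p = 0.140).

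Beside Gpnmb, 5 of the 9 genes passed the threshold higher in differentiated cells and 0 lower, where 16.4% and 19.1% of all genes did; 1 of the 9, Tfe3, was lower at an unadjusted p under 0.05 in limma, and it passed the adjusted threshold with array weights or without undifferentiated replicate 3. Of the 9, 6 had groups that did not overlap, against 46.2% of all genes. Nothing is read from these counts, since the genes were chosen with the results known. In the order of the log2 differences, Gpnmb came first, followed by Fnip2, Fnip1, Flcn, Mitf, Pmel, Rragd, Tfeb, Tfec and Tfe3. The place of Mitf and its steps to its neighbours rest on the mean of its 2 probe sets. Probe set 10540248 alone (1.60) would stand above Fnip1 and Flcn, and probe set 10540265 alone (0.10) below Pmel and Rragd. Fnip1 and Flcn were 0.02 ± 0.09 apart (SE of the within-array step), and Rragd and Tfeb 0.16 ± 0.20, Tfeb and Tfec 0.03 ± 0.19, and Tfec and Tfe3 0.09 ± 0.06 apart. These neighbours, and Flcn and Mitf at 0.33 ± 0.18, do not differ by more than 2 SE. Probe sets of different genes can compress a change unequally, so the order is that of the measured differences. The 5 genes whose 6 values lay closest to those of Gpnmb were Nr4a1, Cped1, Agt, Lum and Aldh1a1, with root mean square differences of 0.11, 0.18, 0.20, 0.32 and 0.32 on the log2 scale over the 6 arrays. Since the group difference makes up most of the values, this likeness is mainly one of size.

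**Figure D3:**
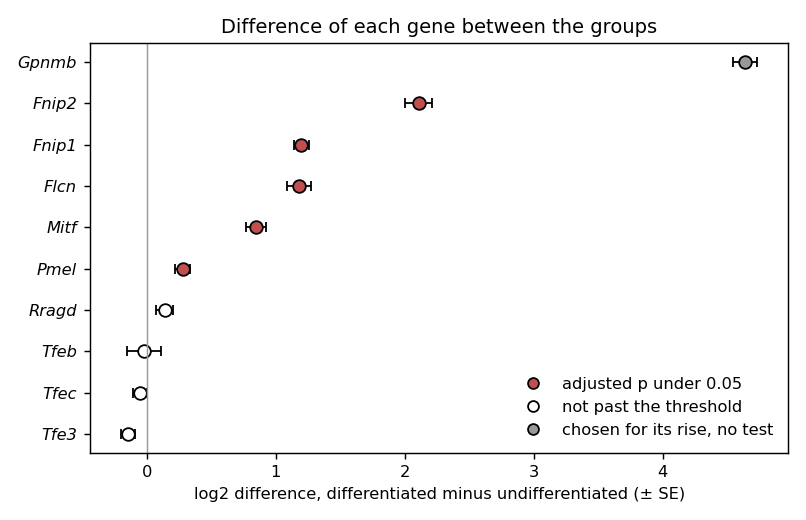
The log2 difference, differentiated minus undifferentiated, of each of the 10 genes with its SE (3 arrays per group). Mitf is shown as the mean of its 2 probe sets, which disagreed. Red points passed an adjusted p under 0.05 in limma, open points did not, and Gpnmb (grey) was chosen for its rise and has no test; Gpnmb is at 4.64 and the next, Fnip2, at 2.11.

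Targets of these factors, mostly lysosomal and autophagy genes known as the CLEAR (coordinated lysosomal expression and regulation) network, were higher in differentiated cells almost throughout. The list also held Bhlhe40, Hif1a and Ppargc1a, which are not lysosomal or autophagy genes (log2 differences of 1.99, 0.71 and 0.04). Of 37 tested genes, 33 rose, 4 did not pass and 0 fell, and 17 of the 33 rose at least 2-fold (limma, with 0 lower at an unadjusted p under 0.05 too); of all genes, 16.4% rose and 2.53% rose at least 2-fold. The median log2 difference of the list was 0.92, where that of all genes was 0.02. The mean of the 37 genes was 0.48 to 0.52 on the differentiated arrays and -0.56 to -0.49 on the undifferentiated arrays. The count of risen genes was 32 or 33 under each of 14 alternatives, 32 where only genes with 1 probe set were kept. The list was compiled with earlier results of these data known, so its direction is a description.

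The largest rise in the list was in Hexa, the α-subunit of the enzyme that degrades ganglioside GM2. It had 1.15, 1.06 and 1.11 in differentiated cells, against -1.31, -1.27 and -1.06 in undifferentiated cells (2.32 ± 0.07, 4.98-fold, adjusted p = 5.32e-08). The acid α-glucosidase Gaa, which breaks down glycogen, rose by 2.03 ± 0.07, and the aspartic protease cathepsin D, Ctsd, also by 2.03 ± 0.05. Bhlhe40, a clock repressor that is also a glucocorticoid target, rose by 1.99 ± 0.07. Among lysosomal membrane proteins, the calcium channel Mcoln1 rose by 1.24 ± 0.08 and Lamp1 by 1.25 ± 0.06. The smallest rise was in the proton pump subunit Atp6v0e (0.38 ± 0.05). The genes that did not pass were Pip4p1, Pip4p2, Ctsf and Ppargc1a, at 0.04 to 0.11, and their groups overlapped.

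Promoters of 32 of the 37 CLEAR genes were matched, and 16 of them held CACGTG, where 8.09% of all 27025 genes with a promoter did; TCACGTG was found in 15 of 32, and in 4.29% of all genes. The network was defined elsewhere by such a motif, so the share describes the list. By call, the motif was found in 8 of 15 genes that rose at least 2-fold, 6 of 14 that rose less, and 2 of 3 that did not pass. The 30 bases around the match nearest to the start site are shown for the 8 genes that rose at least 2-fold, to set their letters beside the promoters above; capitals mark CACGTG.
Gaa, chr11:119267811-119267840, plus strand: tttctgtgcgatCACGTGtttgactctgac
Ctsd, chr7:142387908-142387937, minus strand: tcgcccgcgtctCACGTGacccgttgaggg
Naglu, chr11:101070009-101070038, plus strand: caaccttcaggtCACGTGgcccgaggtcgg
Ctsa, chr2:164833766-164833795, plus strand: gatgcagatgctCACGTGaccagagctaca
Gla, chrX:134601182-134601211, minus strand: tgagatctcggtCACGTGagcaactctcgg
Lamp1, chr8:13159134-13159163, plus strand: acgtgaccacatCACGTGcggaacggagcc
Mcoln1, chr8:3500462-3500491, plus strand: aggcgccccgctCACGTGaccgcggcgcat
Clcn7, chr17:25133386-25133415, plus strand: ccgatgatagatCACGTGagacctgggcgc
A match is a run of letters, and binding was not measured.

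**Figure D4:**
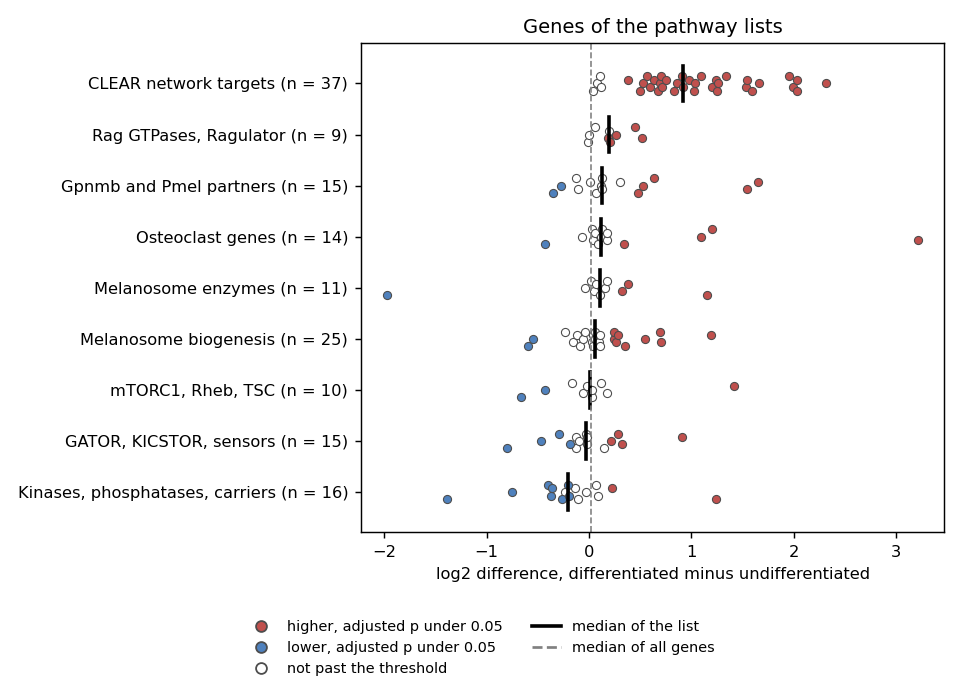
The log2 difference, differentiated minus undifferentiated, of every tested gene in 9 lists around the MiT/TFE factors; red and blue points passed an adjusted p under 0.05 in limma, black bars are list medians and the dashed line is the median of all genes (0.02). All 37 CLEAR genes lie to the right of the line (median 0.92), and the other medians lie between -0.20 and 0.20.

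Genes of the nutrient-sensing machinery upstream of the factors moved in both directions. Of 9 other Rag GTPase and Ragulator genes, which anchor mTORC1 at the lysosome, 5 rose and 4 did not pass (median 0.20), a share called of 55.6%. Of all genes, 16.4% rose and 19.1% fell, 35.5% together, and the counts of the lists that follow are set beside these shares. Rragc, the paralogue of Rragd and the other partner of folliculin, had 0.26, 0.23 and 0.24 in differentiated cells, against -0.26, -0.23 and -0.33 in undifferentiated cells (0.51 ± 0.05, 1.43-fold, adjusted p = 6.30e-05). The scaffold subunit Lamtor3 rose by 0.45 ± 0.06. The count was 2 without differentiated replicate 1 or undifferentiated replicate 1 and 3 without undifferentiated replicate 2. In the core of mTORC1 and its switches Rheb and TSC, 1 of 10 genes rose, 7 did not pass and 2 fell (median 0.00). Deptor, which encodes an inhibitory subunit of mTOR, rose by 1.42 ± 0.06, and the TSC subunit Tbc1d7 (-0.66 ± 0.10) and the mTOR subunit Mlst8 (-0.43 ± 0.07) fell, while Mtor itself was at -0.02 ± 0.06 (adjusted p = 0.869). The risen count was 2 without undifferentiated replicate 2.

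Of 15 GATOR, KICSTOR and amino acid sensor genes, 4 rose, 7 did not pass and 4 fell (median -0.03, 53.3% called, against 35.5% of all genes). The stress-induced sestrins moved apart: Sesn1 rose by 0.90 ± 0.06 and Sesn2 fell by 0.80 on the log2 scale (SE 0.08). The GATOR2 subunit Seh1l also fell (-0.47 ± 0.06), and the arginine sensor paralogue Castor2 rose (0.32 ± 0.07). Risen genes numbered 2 without undifferentiated replicate 2, and fallen genes 2 without differentiated replicate 2 or 3 or undifferentiated replicate 1. Of 16 kinases, phosphatases and carriers that act on the factors, 2 rose, 6 did not pass and 8 fell (median -0.20, 62.5% called, with 6 to 9 fallen over the alternatives). The exportin Xpo1, which carries Tfeb out of the nucleus, had -0.87, -0.57 and -0.84 in differentiated cells, against 0.57, 0.71 and 0.60 in undifferentiated cells (-1.39 ± 0.09, adjusted p = 2.50e-06). Ywhae, a 14-3-3 protein of the family that holds phosphorylated factors in the cytoplasm, fell by 0.76 (SE 0.05). The other 14-3-3 genes of the list did not pass: Ywhaz (-0.03, adjusted p = 0.702), Ywhab (0.06, adjusted p = 0.388) and Ywhag (-0.13, adjusted p = 0.0789). Stub1, a ubiquitin ligase for Tfeb, fell by 0.40 (SE 0.05). Mcoln1, which counts here too, led the rises, and the calcineurin subunit genes Ppp3ca (0.23 ± 0.06) and Ppp3cb (-0.37 ± 0.05) moved in opposite directions.

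Of the pigment genes, more rose than fell, and most did not pass. Of 11 melanosomal enzymes and transporters, 3 rose, 7 did not pass and 1 fell (median 0.10). The share called was 36.4%, against 35.5% of all genes. The copper pump Atp7a rose by 1.15 ± 0.05 and the cystine transporter Slc7a11 fell by 1.97 (SE 0.12); both act in many cell types. Mlana, a melanosomal protein and Mitf target, rose by 0.38 ± 0.06, and tyrosinase, Tyr, the enzyme that starts melanin synthesis, was at 0.02 ± 0.05 (adjusted p = 0.798). Dct, a melanin enzyme, rose by 0.33 ± 0.09 (adjusted p = 0.0213), but its call was lost without differentiated replicate 2 or 3 or undifferentiated replicate 1 or 2 (0.00509 to 0.0689 over the alternatives). The risen count was 2 without differentiated replicate 3, undifferentiated replicate 1 or undifferentiated replicate 2. It was 4 with cyclic loess scaling, where Trpm1 passed too. With array weights or without undifferentiated replicate 3, where Oca2 passed too, it was also 4. Of 25 genes of melanosome biogenesis and transport, 9 rose, 14 did not pass and 2 fell (median 0.06, 44.0% called). The array means of this list were 0.05 to 0.10 in differentiated and -0.07 to -0.04 in undifferentiated cells. Fallen genes numbered 3 with quantile scaling and without undifferentiated replicate 2 or 3. Over the alternatives, 7 to 9 genes rose and 1 to 3 fell. Lyst (1.19 ± 0.09), Rab27a (0.70 ± 0.12) and the motor Myo5a (0.69 ± 0.05) rose, and Bloc1s2 fell (-0.60 ± 0.07). These serve lysosome-related organelles in other cells as well.

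Of 15 partners and processing enzymes of Gpnmb and Pmel, 5 rose, 8 did not pass and 2 fell (median 0.12, 46.7% called, against 35.5% of all genes). The growth factor receptor Fgfr1 (1.65 ± 0.09), the tetraspanin Cd63 (1.54 ± 0.06), the heparan sulphate proteoglycan Sdc4 (0.63 ± 0.06), a receptor for Gpnmb on other cells, and the integrin Itgb3 (0.53 ± 0.10) rose. Cd44, another receptor for Gpnmb, had values of -0.00, -0.05 and -0.07 in differentiated cells, against 0.06, 0.00 and 0.13 in undifferentiated cells (-0.11 ± 0.06, adjusted p = 0.190). Adam10, which sheds the Gpnmb ectodomain, was at -0.13 ± 0.06 (adjusted p = 0.155), and the related sheddase Adam17 fell (-0.27 ± 0.06).

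Gpnmb and several of these genes are also abundant in osteoclasts, macrophages and melanocytes, so markers of those cells were read on the same arrays. Of 14 genes known from osteoclasts, several of them Mitf or Tfe3 targets there, 4 rose, 9 did not pass and 1 fell (median 0.12, 35.7% called, against 35.5% of all genes). The protease Ctsk, which osteoblasts can also make, had 1.58, 1.61 and 1.56 in differentiated cells, against -1.62, -1.71 and -1.56 in undifferentiated cells (3.21 ± 0.06, 9.26-fold, adjusted p = 4.44e-09). The chloride exchanger Clcn7 (1.10 ± 0.06) and its partner Ostm1 (1.20 ± 0.06), both also CLEAR genes, rose. The osteoclast phosphatase Acp5 was at 0.08 ± 0.07 (adjusted p = 0.433), and Nfatc1, the lead regulator of osteoclasts, fell (-0.43 ± 0.07).

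Of 9 defining osteoclast markers 2 rose, Itgb3 and Atp6v0d2 (0.34 ± 0.09), and 0 fell. Atp6v0d2 lost its call without undifferentiated replicate 2 (adjusted p = 0.0523, and 0.00360 to 0.0523 over the alternatives), which left 1. With the replicate number as a block, the osteoclast marker Ocstamp passed too (adjusted p = 0.0470), and the risen count was 3. Of 13 macrophage markers, 3 rose and 0 fell: Fcer1g (0.53 ± 0.07), the lysosomal protein Cd68 (0.44 ± 0.10) and Cd14 (0.42 ± 0.05). Tyrobp was at 0.25 (adjusted p = 0.0706). It passed with cyclic loess scaling, the replicate block or array weights, and without differentiated replicate 2 or undifferentiated replicate 3. The risen count was then 4. The macrophage regulator Spi1 was at -0.04 ± 0.06 (adjusted p = 0.667) and Csf1r at 0.07 ± 0.09 (adjusted p = 0.616). Of 9 melanocyte markers, 2 rose, Mlana and Dct, and 0 fell; without each of the 4 arrays named for Dct, 1 did. Sox10, a defining gene of melanocytes, was at 0.10 ± 0.06 (adjusted p = 0.304). Of 6 adipocyte markers, 1 rose, Fabp4 (0.46 ± 0.06), and 0 fell. Mean centred log2 values were 0.06 to 0.13 in differentiated and -0.11 to -0.02 in undifferentiated cells for the osteoclast list, 0.05 to 0.13 in differentiated and -0.09 to -0.04 in undifferentiated cells for the macrophage list, and 0.06 to 0.07 in differentiated and -0.06 to -0.04 in undifferentiated cells for the melanocyte list. The adipocyte list had -0.01 to 0.12 in differentiated and -0.06 to -0.04 in undifferentiated cells. The shares that rose were 22.2% of the osteoclast, 23.1% of the macrophage, 22.2% of the melanocyte and 16.7% of the adipocyte markers. Of all genes, 16.4% rose and 19.1% fell, while 0 fell in each of these lists. In each list, the mean of every differentiated array lay above that of every undifferentiated array. At an unadjusted p under 0.05 in limma, 0 markers of the osteoclast, macrophage, melanocyte and adipocyte lists were lower as well. Which of these markers are near 0 cannot be read from centred values, and the part of such cells in the difference of Gpnmb was not tested.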

How the data were processed

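RNA from 3 differentiated and 3 undifferentiated MC3T3-E1 samples was measured with 1 array each, and groups come from the sample titles. The authors deposited log2 values from RMA, a method that corrects background, equalises the arrays by quantiles and summarises each probe set; the name, with no version, stands in the submitters' processing notes. The values show a further centring of each of 28856 probe sets on a median of 0 (to within 1e-06), so signal over background is unknown and neither background correction nor a filter on dim probe sets could be varied. Precision is set by the number of arrays. Probe sets naming 1 gene (21789; 1621 named several and 5446 none) were averaged per gene, which affected 999 of 19938 genes. Symbols were updated by gene ID with RefSeq tables of GRCm38.p6 (21698 matched). Differentiated minus undifferentiated was fitted with limma 3.58.1 (lmFit and eBayes, two-sided) in R 4.3.3, with p-values adjusted by Benjamini and Hochberg's method across every gene and called under 0.05; errors are moderated standard errors. The script of the fit was tested on simulated data. The steps between neighbouring genes, and the gap between the 2 probe sets of Mitf, use the SD of within-array differences, not moderated and with no test.

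The genes of the set, the lists and the tests were chosen with earlier results of these data known. Genes named are all 10 of the set, up to 4 called genes per list with the largest differences, ends of ranges, and the 5 genes nearest to Gpnmb. Further genes were named after their values were seen for their known role: Mtor, Tyr, Cd44, Adam10, Adam17, Acp5, Nfatc1, Spi1, Csf1r, Sox10, Stub1, Lamp1, Mcoln1, Clcn7, Ppp3ca and Ppp3cb, and the marker genes and those with promoters shown. Ywhaz, Ywhab and Ywhag were named beside Ywhae as the other genes of their family in the list. Alternatives were a single probe set per gene (the lowest-numbered), genes with just 1 probe set, every probe set by itself, scaling of the values by quantiles, medians or cyclic loess, the replicate number as a block, array weights, robust eBayes, and each array left out.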

Additional observations from a re-analysis of the deposited data

How the results depend on the processing

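Pmel, Mitf, Flcn, Fnip1 and Fnip2 were higher in differentiated cells and past the threshold under each alternative that could be run on them, and Tfeb, Tfec and Rragd stayed short of it under all 14. Mitf has no value where only genes with 1 probe set were kept, and of its probe sets tested singly 10540265 did not pass (0.10). Genes of the set that passed the threshold lower in differentiated cells numbered 1 with array weights and 0 to 1 when each array was left out. The gene was Tfe3, and the cause was not tested. The genes called numbered 7070, and 6003 to 7523 when each array was left out. With the replicate number as a block, 7162 genes were called, and the counts for the set (5) and the pathway lists together (82) were those without it. Correlations of same-numbered deviations from the group means were -0.00, 0.07 and 0.16 for replicates 1 to 3. Not every array correlated best with its own number, but so few arrays cannot show whether the samples were paired. Quantile scaling lowered the difference of Gpnmb to 3.79; the deposited values are centred, which is not the usual input of that method. No scaling moved the median of all genes by more than 0.1. Centred values give no level, so how far signals stood above background is unknown.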
